A study of Ricinus communis with 12 samples.

Results

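In mature castor seeds, 79 protein-coding transcripts were both abundant and nearly equal in endosperm and embryo. They were chosen from the deposited normalized reads, which are read counts divided by 1 size factor per library. A transcript was taken when its mean over libraries 1, 2, 3, 4 and 6 was at least 4000 normalized reads in each tissue and its endosperm mean was 2/3 to 1.5 times its embryo mean. The 79 are part of 27902 coding transcripts and of 29707 transcripts in all. Another 66 coding transcripts passed the level limit in both tissues but not the ratio limits, with 42 higher in endosperm and 24 higher in embryo. No noncoding transcript met the same limits (0). Because levels and ratio chose the members, their levels, ranks, shares of reads and ratios are descriptions and carry no test.

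The study sequenced mRNA of endosperm, 6 libraries, and of embryo, 6 libraries, from mature seeds of Ricinus communis, cultivar Baker 296. All plants were grown in a greenhouse, and no treatment or mutation is named for either tissue. The tissues were compared because they differ in how much ricinoleic acid, the main fatty acid of castor oil, they accumulate. The labels do not say whether libraries came from separate seeds or plants, or whether seeds were pooled, so the spread between libraries may be technical in part.

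Maturing seeds dry out and enter a resting state in which a stored pool of mRNA is kept until germination. In castor the endosperm persists in the mature seed as the main store of oil and protein and surrounds a thin embryo, so both tissues carry such a pool. Equal normalized reads in both tissues say only that a transcript had as many reads once divided by the size factor of each library. They are not equal shares of all reads, since the size factors did not even out the library totals. Fewer cells and less RNA per cell also cannot be told apart. Reads also grow with transcript length, which was not available here. An order by reads is therefore not an order by molecules.

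Gene names could be given only as locus symbols. Of the 79 members, 67 (84.8%) matched 65 genes of the RefSeq annotation of assembly ASM1957865v1 when version numbers were ignored, against 72.4% of all coding transcripts. The accession version was the same in 0 cases. All matched symbols were of the form LOC and a number, with no product name, so no role is stated for any member. The 12 members without a match are named by accession.

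Library depth was uneven between the tissues. The endosperm libraries 1, 2, 3, 4 and 6 held 6920870 to 8871518 reads, and the embryo libraries held 10415612 to 12968343. Endosperm library 5, with 2675474 reads, was not used to choose the members, nor was embryo library 5. Over all transcripts, 11 libraries correlated better with their own tissue than with the other, and endosperm library 5 did not, with median Pearson r of 0.885 and 0.895 (log2(CPM + 1), a description across transcripts). No marker genes of castor endosperm or embryo were matched, so the tissue labels were checked in no other way.

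The shared transcripts together took a similar share of the reads in both tissues, which the ratio limits largely fixed in advance. Their summed share averaged 13.1% ± 1.11 for endosperm and 14.1% ± 1.32 for embryo (SD over 5 libraries of each). By library it was 13.2%, 12.3%, 13.6%, 14.6%, 10.1% and 11.8% in endosperm libraries 1 to 6, and 14.7%, 14.0%, 15.1%, 15.1%, 13.5% and 11.9% in embryo libraries 1 to 6. The tissues overlapped, and the lowest share was that of library 5 in endosperm and library 6 in embryo. The 66 abundant but unequal transcripts held 26.7% ± 1.37 of the reads in endosperm libraries and 15.2% ± 1.35 in those of embryo. The shared set was thus the smaller abundant set in endosperm, and its mean was lower in embryo too. In embryo libraries 3 and 4, however, it held 15.1% each, against 14.9% and 14.2% for the unequal set. The same limits split the abundant transcripts into these sets, so the shares are descriptions and carry no test.

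**Figure D1:**
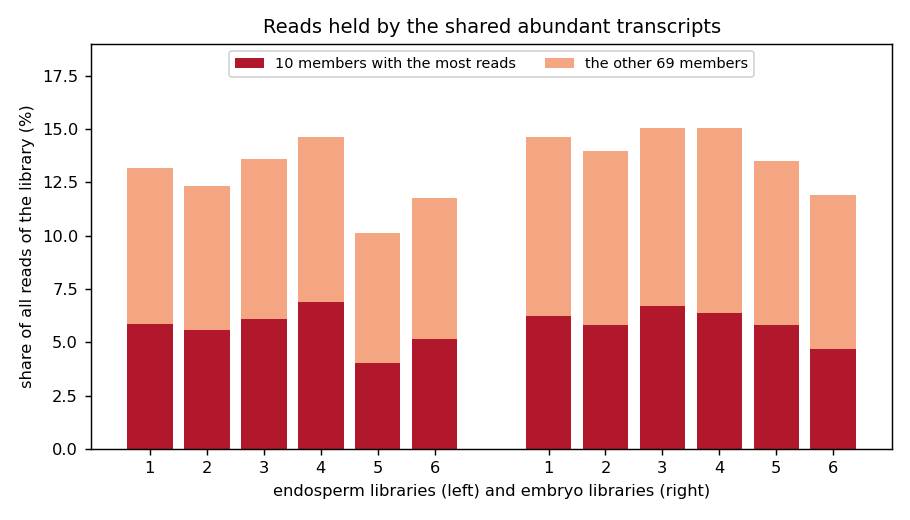
Share of all reads of each library (%) held by the 79 shared abundant transcripts, with the 10 members with the most reads in dark red and the other 69 in light red; endosperm libraries 1 to 6 stand left of embryo libraries 1 to 6. The share runs from 10.1% to 14.6% in endosperm and from 11.9% to 15.1% in embryo.

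The pool was uneven. Only 13 of the 79 members made up 50% of its mean normalized reads, and the 10 with the most reads took 45.0% ± 1.32 of the members' reads in endosperm libraries and 42.0% ± 1.96 in embryo libraries (SD). Across members, endosperm and embryo means were ordered alike (Spearman rho 0.912, Pearson r 0.959 on log2 means, n = 79, a description). The ratio limits themselves force much of that likeness.

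By rank among all coding transcripts, the members reached from the 4th to the 227th place in endosperm and from the 2nd to the 244th in embryo. The members' median rank per library averaged 115 ± 12.8 for endosperm and 89.2 ± 3.9 for embryo (SD over 5 libraries of each). The larger share of the unequal transcripts in endosperm moved with this, and its part was not tested. Of the 10 coding transcripts that were among the top 20 of both tissues, 3 were members, namely LOC8285550, LOC8261354 and XM_002509531. At the top 50 the numbers were 19 of 34, and at the top 100 they were 32 of 59.

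**Figure D2:**
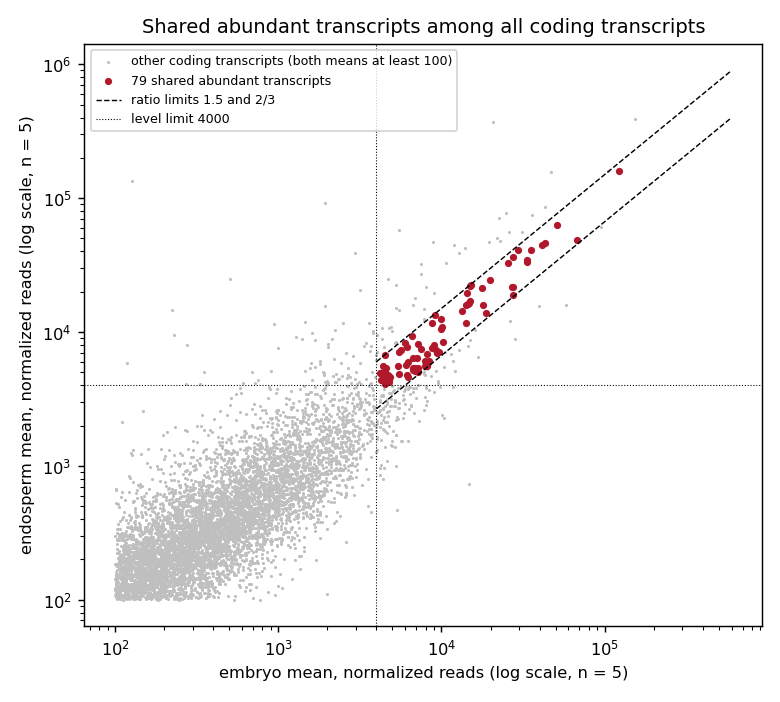
Mean normalized reads in endosperm (vertical, log scale, n = 5) against embryo (horizontal, log scale, n = 5) for all coding transcripts with at least 100 in both tissues; the 79 members are red, dashed lines are the ratio limits and dotted lines the level limit of 4000. The members fill the band between the dashed lines above the level limit, up to LOC8285550 at 159192 in endosperm and 121799 in embryo.

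LOC8285550 (XM_002512320) led the pool in both tissues. It had 181626, 167290, 168522, 164198, 112707 and 114322 normalized reads in endosperm libraries 1 to 6, and 132909, 121104, 137135, 140276, 88976 and 77570 in embryo libraries 1 to 6. In each tissue, libraries 5 and 6 were the lowest, and the tissues overlapped. Its share of all reads was 1.72% ± 0.194 for endosperm and 1.499% ± 0.261 for embryo (SD over 5 libraries of each).

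LOC8261354 (XM_002519283) was second by the mean of both tissues, although XM_002509531 had more reads in endosperm. Its endosperm values were 39429, 44829, 53620, 71938, 10998 and 33233, and its embryo values were 74934, 47552, 78284, 90873, 85027 and 45905 normalized reads. Endosperm library 4 was the highest of its tissue, and endosperm library 5 lay far below every other library. Without library 5 the ratio of endosperm to embryo was 0.720, whereas in the libraries numbered 5 alone it was 0.129, the lowest of all members.

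XM_002509531, not matched to a gene, came next. It had 56484, 52598, 58109, 87670, 62893 and 57764 normalized reads in endosperm libraries 1 to 6, against 50550, 49847, 51473, 57914, 46587 and 45848 in embryo libraries 1 to 6. All embryo libraries were close together, with a coefficient of variation (CV, the SD as a percentage of the mean) of 8.53% (n = 5). In endosperm the CV was 22.8%, with library 4 far above the other libraries.

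The next 7 by reads lay between 27466 and 46052 normalized reads in both tissue means. LOC8280914 was the steadiest of them, at 41335 ± 4387 in endosperm and 35479 ± 2566 in embryo (SD over 5 libraries of each). LOC8267197 had almost equal means, 33438 ± 11621 in endosperm and 33330 ± 6028 in embryo (SD over 5 libraries of each), but its endosperm libraries differed among themselves, with 42265, 44958 and 37333 in libraries 1, 2 and 3 against 18108, 13631 and 24528 in libraries 4, 5 and 6. An equal mean could thus stand on unequal libraries. LOC8274875 had 34355 ± 8026 in endosperm and 33322 ± 9746 in embryo (SD over 5 libraries of each).

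Higher endosperm means, inside the limits, were seen for LOC8283147 at 40812 ± 6324 in endosperm and 29444 ± 5007 in embryo, and for LOC8284326 at 36233 ± 8072 and 27466 ± 8163 (SD, n = 5 each). LOC8270021 (XM_002510746) and LOC8264211 (XM_015722943) stood nearer to equality, with ratios of endosperm to embryo of 1.06 and 1.07. The endosperm and embryo ranges overlapped for each of these 7 members.

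Within the limits the members leaned to neither side. The ratio of endosperm to embryo was above 1 for 41 members and below 1 for 38, with a median of 1.02, and 42 members lay between 4/5 and 5/4. That balance moved with the scaling. With library totals alone, the same members had a median ratio of 0.896 with 25 above 1 and 54 below, and with TMM scaling 0.993 with 38 above and 41 below. The median log2 ratio of 6849 coding transcripts with at least 100 normalized reads in both tissues was -0.36 with library totals, -0.21 with TMM and -0.17 with the deposited size factors.

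The ratio was nearest to 1 for LOC8287913, LOC8267197 and LOC8268433. LOC8287913 averaged 4447 ± 2139 normalized reads in endosperm and 4456 ± 1388 in embryo (SD over 5 libraries of each). LOC8268433 averaged 7429 ± 973 in endosperm and 7456 ± 1703 in embryo (SD over 5 libraries of each). The spread among libraries was far larger than the difference of the means for these members.

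For 77 of the 79 members the ranges of endosperm and embryo overlapped over the 5 libraries of each tissue, and 2 members did not overlap. Over all 16605 tested transcripts, 32.4% did not overlap, and 44 of the 66 abundant unequal transcripts did not, but the ratio limits bear on this count and nothing is read from it. The 2 were XM_002534015, at 5292 to 6726 in endosperm and 6869 to 9350 in embryo, and LOC8280273, at 4792 to 6264 in endosperm and 6418 to 9436 in embryo, both named after their values were seen. These ranges leave out the libraries numbered 5, where XM_002534015 had 5424 in endosperm and 9878 in embryo, and LOC8280273 had 4424 and 6955. In those libraries, however, 61 of the 79 members had the lower value in endosperm. A contrast of endosperm with embryo over all transcripts, fitted in edgeR with an adjusted p threshold of 0.05 on 5 libraries per tissue, called 39.8% of 16605 transcripts, with 19.7% higher in endosperm and 20.2% higher in embryo. Of the 79 members it called 9, with 3 higher in endosperm and 6 higher in embryo, and nothing is read from this since the choice of members had used the same contrast. With library totals alone 2536 transcripts were called higher in endosperm and 4049 higher in embryo, against 3267 and 3346 with TMM, and the members called were 0 and 14.

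Just inside the limits were LOC8280273 and LOC8272561 at ratios of 0.674 and 0.693, and LOC8265165 and LOC8275799 at 1.48 each. Just outside were LOC8276028 and LOC8267042 at 0.666 and 0.658, and LOC8279129 and LOC8271754 at 1.53 and 1.58. LOC8279129 averaged 159997 normalized reads in endosperm and 104253 in embryo, close to the levels of LOC8285550. At the level limit, LOC8280126 and LOC8273371 were inside with endosperm means of 4081 and 4195, and XM_002518026 and LOC8286339 outside at 3983 and 3946. For embryo, LOC8258248 and LOC8287463 were inside at 4220 and 4234, and LOC8287507 and LOC8258793 outside at 3912 and 3779. No gap in the values separates members from non-members.

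Some genes gave more than 1 transcript, and equality of a transcript was then not always equality of the gene. Of the 65 member genes, 14 had more than 1 transcript in the table, with 17 transcripts that were not members. Salmon shares reads among similar transcripts, so these splits are less certain than the gene totals. Summed over transcripts, 12 of the 14 genes kept a ratio inside the limits, and the exceptions were LOC8265512 at 1.74 and LOC8271835 at 1.55.

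Both transcripts of LOC8270021 were members. The one with more reads, XM_002510746, made up 80.1% ± 1.49 of the gene's normalized reads in endosperm and 83.2% ± 0.56 in embryo, and XM_015726803 the remaining 19.9% ± 1.49 and 16.8% ± 0.56 (SD, n = 5 each). That split was nearly constant over these libraries, from 77.9% to 81.8% in endosperm and from 82.7% to 84.1% in embryo. The level of XM_002510746 ranged from 25717 to 58271 in endosperm and from 33310 to 50229 in embryo. In the libraries numbered 5 its share was 84.1% in endosperm, at a level of 23271, and 84.2% in embryo. LOC8280238 also gave 2 members, XM_015715045 and XM_002512567, with ratios of 1.14 and 1.13. Its remaining transcript, XM_015715046, was not equal, with 1994 to 3987 normalized reads in endosperm and 4370 to 11609 in embryo over the same libraries. It held 9.40% ± 1.26 of the gene in endosperm and 25.8% ± 4.35 in embryo (SD over 5 libraries of each). In the libraries numbered 5 that order was reversed, with 24.7% of the gene in endosperm and 18.5% in embryo.

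LOC8273613 showed the widest contrast between transcripts of a member gene, and it and LOC8265512 are named here after their values were seen. Its member XM_015719132 had a ratio of 0.789. Its other transcript, XM_015719128, had 16722, 17406, 14231, 4281, 923 and 5093 normalized reads in endosperm libraries 1 to 6, and 653, 558, 865, 1991, 778 and 635 in embryo libraries 1 to 6. Endosperm libraries 1, 2 and 3 were the high ones, library 5 stood at the level of embryo, and the means of the 5 libraries per tissue were 12.3-fold apart. The member's share of the gene was 67.0% ± 9.12 in endosperm and 96.7% ± 1.95 in embryo (SD over 5 libraries of each). For LOC8265512 the other transcript, XM_015721780, had 19644 normalized reads in endosperm and 9066 in embryo on average, and 1960 in endosperm library 5. Of the 17 other transcripts of member genes, 7 had a ratio inside the limits, 5 lay above 1.5 and 5 below 2/3.

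Neighbours were sought only among member genes that were matched and placed on a chromosome, which leaves out the 12 members without a match. No 2 of these genes stood next to each other among protein-coding genes of that annotation. Within 10 genes of each other were LOC8269194 and LOC8269199, with 3 coding genes between them, and LOC8282342 and LOC8282332, with 7. The ratio of endosperm to embryo was 1.23 for LOC8269194 and 1.02 for LOC8269199, and it was 1.47 for LOC8282342 and 0.806 for LOC8282332.

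Variation among libraries was moderate and well above counting error. The median CV of the members was 23.0% in endosperm (quartiles 16.2% and 29.3%) and 18.9% in embryo (quartiles 15.1% and 27.5%), each over 5 libraries. Counting error alone gave a median CV of 1.26% in endosperm and 0.916% in embryo. The CV was below 20% for 29 members in endosperm and 44 in embryo, and above 40% for 5 and 2. Of the 6849 coding transcripts with at least 100 normalized reads in both tissues, 2664 and 3648 were below 20%, and 1156 and 522 above 40%. The CV was higher in endosperm than in embryo for 44 of the 79 members. Without endosperm library 4 the endosperm median was 17.9%, below that of embryo, and without endosperm library 6 it was likewise 17.9%, so the order of the tissues rests on those libraries.

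The median CV of the members was close to that of some other sets and below that of others, with no test of the difference. For the 66 abundant unequal transcripts the median CV was 24.9% in endosperm and 18.8% in embryo, and for the 6849 coding transcripts with at least 100 normalized reads in both tissues it was 23.4% and 19.2% (n = 5 libraries each). It was 28.4% and 21.9% for the 151 other transcripts with an endosperm mean of at least 4000, and 22.5% and 19.6% for the 180 other transcripts with such a mean in embryo. Above 40% in endosperm were 5 of the 79 members, 35 of those 151, 21 of those 180, 9 of the 66 and 1156 of the 6849. The 151 and the 180 both include the 66. The limits that chose the members used means of these same libraries, so nothing is read from these counts. A member that varied in one tissue was only weakly likely to vary in the other (Spearman rho 0.268 across members), and the CV had little relation to the level (rho -0.0254 in endosperm and 0.150 in embryo). These correlations describe 79 transcripts of the same libraries.

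**Figure D3:**
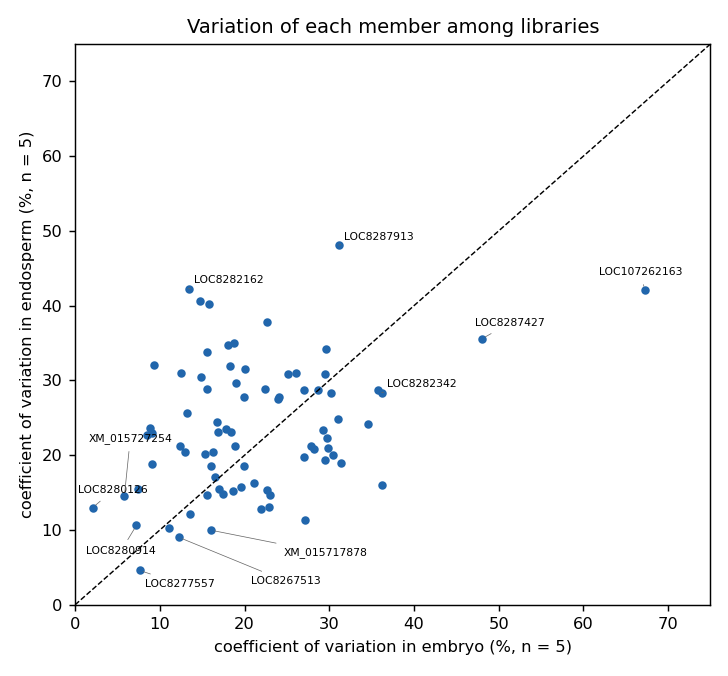
Coefficient of variation (%) of each of the 79 members over libraries 1, 2, 3, 4 and 6 of endosperm (vertical) against embryo (horizontal); the dashed line marks equal values. LOC8277557 is low in both tissues, at 4.59% in endosperm and 7.63% in embryo, and LOC107262163 is high in both, at 42.1% and 67.2%.

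The steadiest member in endosperm was near the level limit. LOC8277557 had 4868, 4566, 4912, 4553, 3863 and 5046 normalized reads in endosperm libraries 1 to 6, and 4930, 4670, 4213, 5143, 4327 and 4537 in embryo libraries 1 to 6. Its CV of 4.59% was the lowest in endosperm, and its lowest library was endosperm library 5. LOC8280126 had the lowest CV in embryo, 2.07%, from 4556, 4462, 4530, 4590 and 4354 in embryo libraries 1, 2, 3, 4 and 6, while embryo library 5 had 3665. Its endosperm libraries ranged from 3179 to 4547. Low variation was also seen for LOC8267513 and XM_015717878 in endosperm, at 9.02% and 9.98%, and for XM_015727254 and LOC8280914 in embryo, at 5.82% and 7.23%. With library 5 included the CV of LOC8267513 in endosperm was 26.9%, from a value of 1897 in that library, and that of XM_015717878 was 14.7%. For LOC8277557 in endosperm it was 9.19% and for LOC8280126 in embryo 8.04%.

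LOC107262163 had the highest CV in embryo, at 67.2%. It had 26443, 22740, 21109, 22391, 3852 and 5267 normalized reads in endosperm libraries 1 to 6, and 11609, 14361, 9582, 30725, 7783 and 5653 in embryo libraries 1 to 6. Libraries 5 and 6 were the lowest in both tissues, and embryo library 4 stood above all other libraries of both tissues. LOC8287427 had a CV of 48.0% in embryo, where it ranged from 1669 in library 6 to 9530 in library 4. LOC8282342 was at 36.2% in embryo, where it was the opposite way round, lowest in library 4 at 6640 and highest in library 6 at 14643. In endosperm the highest CVs were those of LOC8287913 at 48.1%, LOC8282162 at 42.3% and LOC107262163 at 42.1%, and the first pair had its highest value in library 4, at 8191 and 8173.

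Many members departed together in single libraries. Set against the mean of the other 5 libraries of its tissue, endosperm library 5 held 36 members within 2/3 to 1.5, with 40 below and 3 above, and endosperm library 4 held 53 within, 17 above and 9 below. In endosperm libraries 1, 2, 3 and 6 the numbers within were 73, 72, 75 and 62. In embryo they were 78 in each of libraries 1, 2 and 3, 68 in each of libraries 4 and 5, and 56 in library 6, where 22 members were below.

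Endosperm library 5 was the lowest of its tissue for 47 members and embryo library 6 for 42, and the highest were endosperm library 4 for 29 members and embryo library 4 for 41. These counts have no like count over all transcripts beside them, so nothing is read from them. Inside the same limits were 45.6% of the members in endosperm library 5, 67.1% in endosperm library 4 and 70.9% in embryo library 6, against 53.1%, 72.5% and 78.9% of all 6849 transcripts. Of the 66 abundant unequal transcripts, 25, 40 and 51 were inside in these libraries, so such departures were not particular to the members. In the other 9 libraries the limits held 78.5% to 98.7% of the members and 75.6% to 93.5% of all transcripts. Endosperm library 5 also had the fewest reads, and the part of depth in these departures was not tested.

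**Figure D4:**
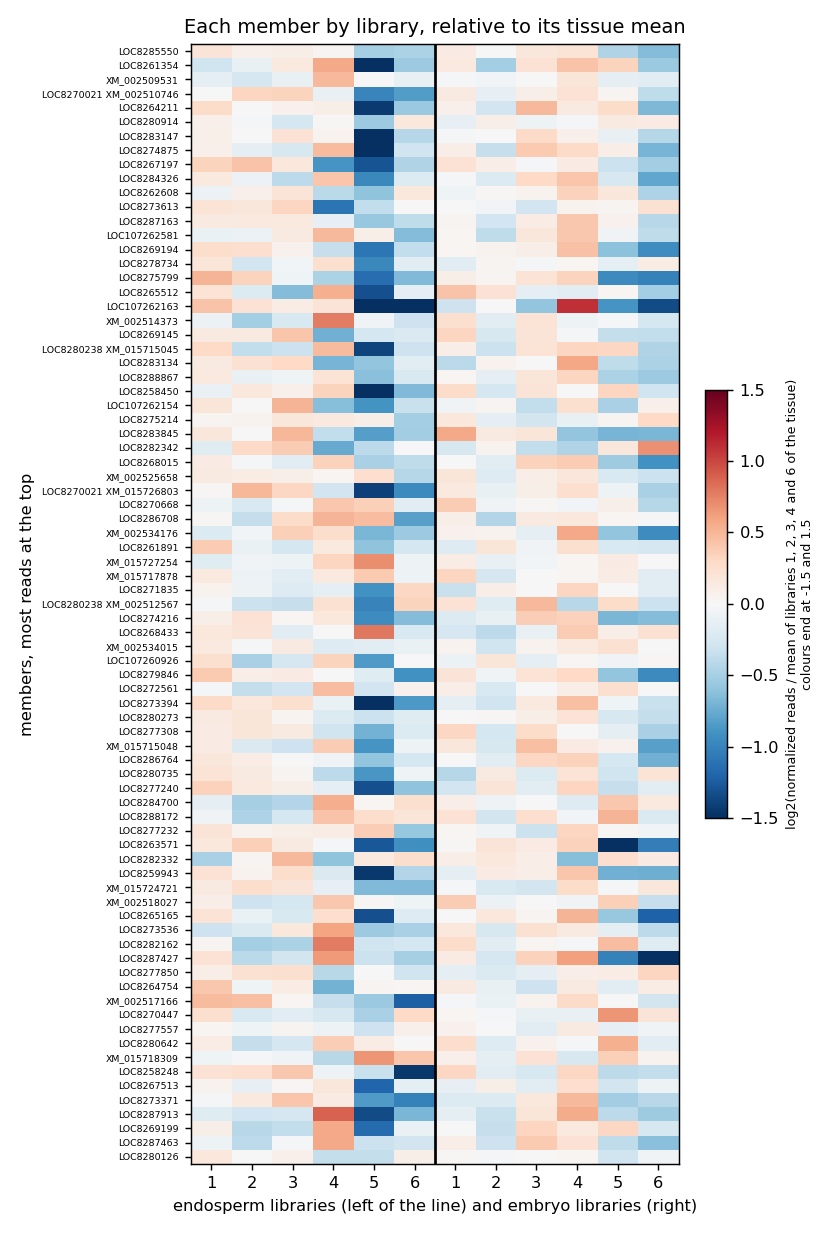
Each member (rows, most reads at the top) in endosperm libraries 1 to 6 (left of the line) and embryo libraries 1 to 6 (right), as log2 of its normalized reads over the mean of libraries 1, 2, 3, 4 and 6 of the same tissue; red is above and blue below that mean. Endosperm library 5 is blue for most members, and embryo library 6 for many, with 47 and 42 members at their lowest there.

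The libraries numbered 5 had not been used to choose the members, and with 1 library per tissue they give no p-value. In them, 47 of the 79 members (59.5%) had a ratio of endosperm to embryo within 2/3 to 1.5, 31 lay below and 1 above. Of all 6849 coding transcripts with at least 100 normalized reads in both tissues, 53.3% were within the same limits there, so the members' share was near that of transcripts in general. The median ratio of the members was 0.7503, against 1.02 in the libraries that chose them. For all 6849 transcripts the medians were 0.882 and 0.888. The 66 abundant unequal transcripts fell too, with a median of 1.02 in the libraries numbered 5 against 1.93 in the others. The members and these 66 had been set apart by their ratio in libraries 1, 2, 3, 4 and 6, and the 6849 had not. The depth of endosperm library 5 moved with this, and its part was not tested.

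The count depended on which libraries were paired. Endosperm library 5 held 35, 39, 30, 28 and 53 members within the limits against embryo libraries 1, 2, 3, 4 and 6. Embryo library 5 held 47, 50, 52, 52 and 53 when set against endosperm libraries 1, 2, 3, 4 and 6. Among the 25 pairs of libraries that chose the members by this same ratio, the count was 41 to 69 (median 58), so endosperm library 5 lay below that range with embryo libraries 1 to 4 and inside it with embryo libraries 5 and 6. Of the 66 abundant unequal transcripts, 26 (39.4%) came within the limits in the libraries numbered 5. Both values reached 4000 for 56 of the 79 members.

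**Figure D5:**
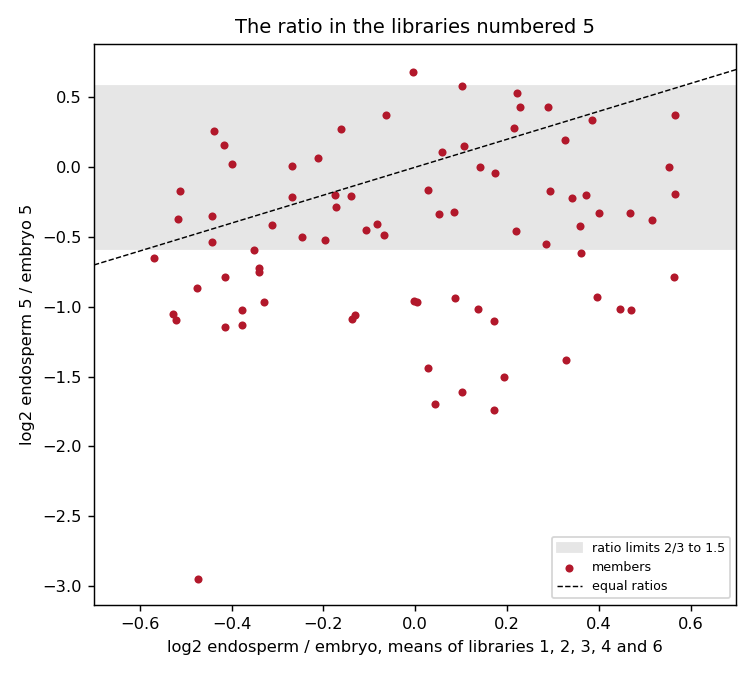
Log2 ratio of endosperm to embryo in the libraries numbered 5 (vertical) against the ratio of the means of libraries 1, 2, 3, 4 and 6 (horizontal) for the 79 members; the grey band marks 2/3 to 1.5 and the dashed line equal ratios. Most points lie below the dashed line, 31 lie below the band and LOC8261354 is the lowest, at a ratio of 0.129.

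Departures of single members in the libraries numbered 5 were largest in endosperm for LOC107262163, LOC8261354 and LOC8273394. LOC8273394 had 2239 normalized reads there, against 4205 to 9359 in the other endosperm libraries. In embryo they were largest for LOC8263571, LOC8287427 and LOC8275799. LOC8263571 had 6620, 7568, 6536, 5793, 2461 and 3139 in endosperm libraries 1 to 6, and 6295, 7059, 6732, 7883, 1900 and 3020 in embryo libraries 1 to 6. In both tissues libraries 5 and 6 thus lay below the other 4, though the full order of libraries differed. The same held for LOC8275799, with 10107 and 14099 against at least 16160 in endosperm, and 7799 and 7493 against at least 15553 in embryo. Both members were named for their departure in embryo library 5, so a value far from the others there came with the choice.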

How the data were processed

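Messenger RNA of 12 libraries, 6 of endosperm and 6 of embryo, had been sequenced. The tools named are Trimmomatic, DESeq2 and Salmon, per the submitters' processing notes. For their versions and settings, the transcript set and the build, the sources used here give nothing. The authors deposited estimated counts per RefSeq transcript for 10 libraries and a normalized signal for all 12. In the 10 shared libraries the signal was the count times a constant per library, within a relative spread of 1.2e-09. For the libraries numbered 5, 100% of the signal values were whole multiples of 1 read within 0.01 reads, and these reads were used. No pair of libraries of 1 tissue agreed within sampling noise (lowest chi-square per degree of freedom 20.6 over 30 pairs).

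The members, lists and named transcripts were chosen with earlier results of these data known. Named are the 10 members with the most reads, the 3 lowest and 3 highest CVs per tissue, the 3 ratios nearest 1, the 2 transcripts inside and outside each limit, the 3 largest departures per tissue in library 5, and members of 1 gene or neighbouring genes. Planned lists by product name, protein features and promoter motifs were not run, since product names and sequences were not available here. Means and SDs are over libraries 1, 2, 3, 4 and 6. The transcript-wise fit used edgeR 4.0.16 in R 4.3.3 on these 10 libraries (TMM, filterByExpr by tissue, robust quasi-likelihood F test, Benjamini-Hochberg) and was tested on simulated data. Alternatives were other scalings, filters and limits, DESeq2 1.42.0, a block by replicate number and leaving out each library. Python 3.11.15 was used with matplotlib 3.10.9, scipy 1.17.1, pandas 2.3.3 and numpy 2.4.6.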

Additional observations from a re-analysis of the deposited data

Results flagged for a closer look

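A single library far from the other 5 of its tissue, by Dixon's ratio, was found in 7 of 50 groups of 6 values, made of the members' summed share and 24 named members in each tissue. Chance marks about 1 in 20 independent groups, but that share does not apply here. Of the 7, LOC8287913, LOC8282162 and LOC107262163 had been named for a high CV, and LOC8267513 and LOC8280126 for a low CV over libraries that leave out library 5. All groups also share these 12 libraries. No group of the summed share was among the 7.

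Endosperm library 4 was the high one in 3 of them. XM_002509531 had 87670 normalized reads there, against 52598 to 62893 in the other endosperm libraries. LOC8287913 had 8191, against 1753 to 3911, and LOC8282162 had 8173, against 3329 to 4882. Endosperm library 5 was apart in 2 groups, in opposite directions, with LOC8267513 at 1897 against 3929 to 4884 and LOC8268433 at 12857 against 6343 to 8507. In embryo, LOC107262163 had 30725 in library 4, against 5653 to 14361 in the others, and LOC8280126 had 3665 in library 5, against 4354 to 4590.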

How the results depend on the processing

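The number of members stayed within 1.5 times 79 under most settings and was 120 with a level limit of 3000 and 42 with ratio limits of 4/5 to 5/4. Leaving out each of the 10 libraries in turn gave 74 to 84. Which transcripts were members depended on scaling: with library totals alone 71 were found, of which 62 were among the 79. With ratio limits of 1/2 to 2 the members held 18.8% of endosperm and 20.03% of embryo reads, and leaving out single libraries gave 12.7% to 13.4% and 13.9% to 14.7%. The median CV was 28.1% in endosperm over all 6 libraries and 16.6% in embryo with library totals alone, and leaving out single libraries gave 17.9% to 24.9% in endosperm and 16.1% to 20.8% in embryo. The causes were not tested.

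In the libraries numbered 5, 48 members were within the limits with library totals and 43 with TMM. The number of transcripts called between endosperm and embryo was 5849 to 7266 with single libraries left out, 8273 with DESeq2 and 6613 in the reported fit. Members called numbered 14 with library totals alone (0 higher in endosperm and 14 higher in embryo) against 9, and 2 without embryo library 1, 4 without endosperm library 1, 5 without embryo library 4 and 5 with all 12 libraries. Estimation without robust weights, an alternative chosen after seeing the data, called 6677 transcripts. Same-numbered libraries are not stated to share a seed or plant, and their deviations over tested transcripts correlated at -0.041 to 0.094. With the replicate number as a block, 6113 transcripts were called, 10 members among them, and not every library correlated best with its own number. Endosperm library 5 had the fewest reads, and the part of its depth in the values of single members was not tested.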

Other observations

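For some members the lowest pair of libraries had the same numbers in both tissues, an observation made after the values were seen. Over all 15 possible pairs of libraries, numbers 5 and 6 were the lowest pair for 31 of the 79 members (39.2%) in endosperm and 28 (35.4%) in embryo. These shares were 33.3% and 39.4% for the 66 abundant unequal transcripts, and 17.4% and 18.5% for the 6849 coding transcripts. They bear on the share in both tissues. Numbers 2 and 6 were the lowest pair for 24 members (30.4%) in embryo, but for 5 (6.33%) in endosperm. Over the 6849 coding transcripts the shares for 2 and 6 were 11.8% in embryo and 3.93% in endosperm. Numbers 5 and 6 were the lowest pair in both tissues for 18 members (22.8%). Among the 66 abundant unequal transcripts it was 14 in both tissues (21.2%), and among 6849 coding transcripts with at least 100 normalized reads in both tissues it was 6.69%. With library totals alone the shares in both tissues were 16.5%, 10.6% and 3.45%. The labels do not say what the numbers stand for, and the cause was not tested.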
